A study of Mus musculus with 14 samples.

Results

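Gene expression after 12 h of transcription factor induction was compared with that of untreated cells of the same day across 19938 genes, in 6 of the 14 arrays of the series. Mouse embryonic stem cells, grown on mouse embryonic fibroblast feeders beforehand, had differentiated as embryoid bodies, which are cell aggregates that pass through stages of the early embryo. In the induced cells doxycycline switched on ER71, an ETS factor whose gene is Etv2, together with GATA2 and, by the titles and genotype labels of the samples, Scl, whose gene is Tal1. The design text counts 3 factors but names only ER71 and GATA2, so induction of Tal1 rests on the titles and genotype labels. Its probe set cannot decide this, as it does not separate the transgene from the endogenous transcript. Doxycycline at 1 µg/ml was present from day 2, and 3 arrays of induced cells were taken 12 h later. The 3 control arrays held untreated embryoid bodies of day 2.5, whose genotype is labelled wild-type. Replicates 1 and 2 of both groups came from cells labelled iEGS and replicate 3 of both from cells labelled iB1, so line and replicate 3 cannot be told apart. No group received the drug while lacking the transgenes, among those analysed here, so a response to the drug and one to the factors cannot be told apart. The samples are whole cell cultures, in which a change in the share of a cell type and a change of RNA within cells cannot be told apart. Genes of early mesoderm, blood and endothelium are touched only where another gene family contains them. The results concern transport, growth factor signalling, guidance cues, cytoskeleton, immune response, chromatin, microRNA and metabolism.

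ETS factors, GATA factors and the basic helix-loop-helix factor Scl bind short DNA motifs and act together in the precursors of blood and endothelium. At this stage the untreated embryoid body resembles the epiblast and primitive streak, where Nodal, Wnt and FGF ligands act through Smad proteins, beta-catenin and the ERK kinase pathway. Several of those ligands switch on their own inhibitors, so that the level of an inhibitor such as a Sprouty gene is commonly read as a sign of pathway activity.

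The label of the tissue was checked with 12 markers of the early embryoid body, of which 11 were measured and all 11 lay above the median signal of all genes. All 11 differences between induced and control arrays were below 0, with a median of -0.59 (log2), and the mean over the markers was 8.99, 8.48 and 8.83 in controls and 8.02, 7.71 and 7.81 after induction. Pou5f1, the pluripotency factor Oct4, differed least, with a mean log2 value of 11.14 in controls and 11.04 after 12 h. Markers of feeder fibroblasts (22 genes) had mean log2 values of 4.99 to 5.21 on the control arrays and 5.12 to 5.21 on the induced arrays, and 7 of the 22 lay above the median signal. No feeder marker was called, although Thy1, a fibroblast and lymphocyte surface protein, differed by 1.02 ± 0.25 (log2, SE, adjusted p = 0.0719) and passed with the replicate number as a block (adjusted p = 0.0018). The part of feeder cells in the results was not tested. The 6 arrays correlated pairwise at 0.983 to 0.994, and their median log2 values ran from 5.54 to 5.6.

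Each of the induced factors was higher on every induced array than on any control array. Gata2 had log2 values of 5.85, 5.49 and 5.59 in controls against 10.43, 9.89 and 9.93 after induction, a difference of 4.44 ± 0.18. The differences were 3.11 ± 0.19 for Etv2 and 2.48 ± 0.24 for Tal1 (limma adjusted p = 1.07e-08, 6.86e-07 and 4.9e-05). Probe sets do not separate transgene from endogenous transcripts.

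Among the 19938 genes, 162 (0.813%) were called higher and 115 (0.577%) lower after 12 h, 277 in all (1.39%), at a Benjamini-Hochberg adjusted p under 0.05 from limma. Of these, 99 rose and 69 fell at least 2-fold. In every called gene the 3 induced arrays lay on one side of the 3 control arrays, which by itself held for 1351 genes upwards (6.78%) and 1540 downwards (7.72%). The replicate numbers pair the arrays, and a fit that blocked on them called 247 genes higher (1.24%) and 194 lower (0.973%), the original 277 among them. Leaving out replicate 2 left 43 higher and 37 lower, and leaving out replicate 3 left 64 and 39. The single called genes named below follow a stated rule unless marked otherwise, and 43 of the 144 named genes that were called kept the call under all 21 alternatives. In the plot of all genes Gata2 and Slc7a8 lie furthest up and Foxa2 furthest down.

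**Figure D1:**
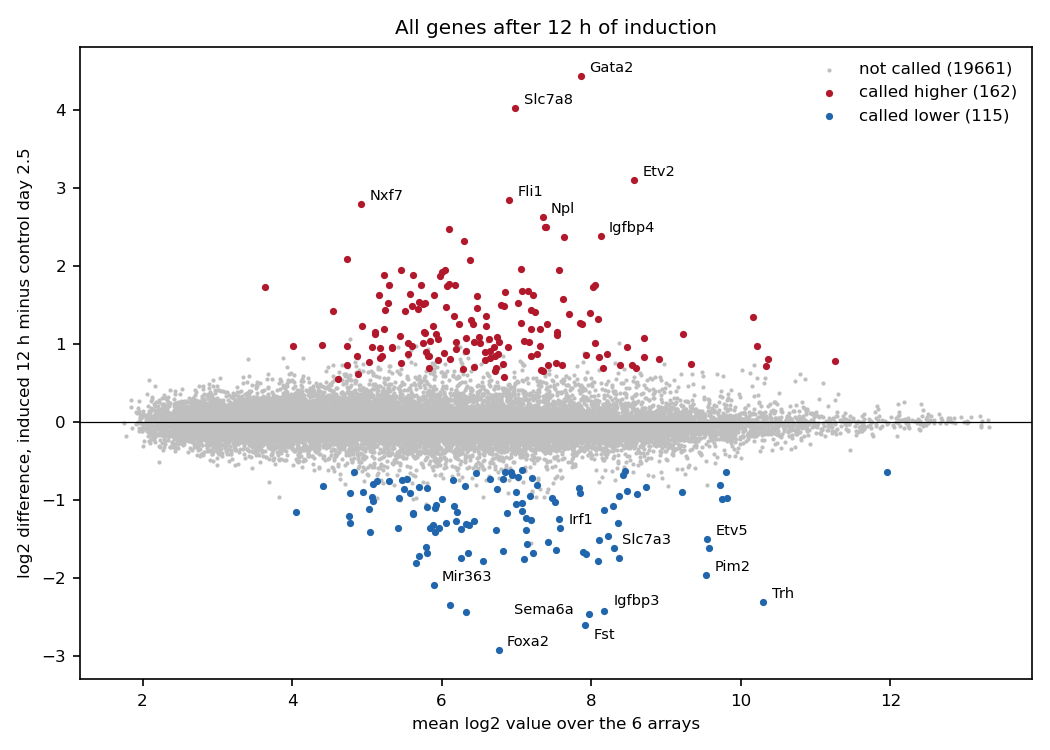
Log2 difference between induced 12 h and control day 2.5 (3 arrays each) against the mean log2 value of the 6 arrays, 1 point per gene. The 162 genes called higher are red and the 115 called lower are blue, and the differences run from 4.44 for Gata2 to -2.92 for Foxa2 among labelled genes.

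Gene families were followed through 81 lists, which held 4407 of the genes measured and 128 of the 277 called genes, 64 in each direction. A called member was present in 55 lists and in 21 of these members moved both ways. Several small families had called members. Of 24 ETS factors 4 rose (16.7%) and 3 fell (12.5%). Of 31 FGF ligands and receptors 5 fell (16.1%) and 2 rose (6.45%), and of 26 Nodal pathway genes 4 fell (15.4%). Solute carriers, the largest list, gave the highest number of rises, 9 of 364 (2.47%), against 3 falls (0.824%). Among all genes the shares called were 0.813% higher and 0.577% lower. By the replicate block the counts moved by more than 1.5 times for solute carriers (5 lower), semaphorins and plexins (4 higher), cadherins (4 lower), Wnt genes (4 higher, 3 lower), cell cycle genes (3 lower), sialic acid genes (3 lower), the retinoid pathway (3 lower), Ras and Rap regulators (3 higher), Zfp zinc fingers (3 higher) and visceral endoderm (4 higher). In the same fit 2 members rather than 1 were called for potassium channels (each way), integrins (lower), intermediate filaments (higher), basement membrane (higher), the IGF axis (lower), the Polycomb group (higher), glutathione enzymes (higher), orphan receptors (higher) and microRNA genes (lower). Some lists with no call in a direction gained 1 to 3 there, the most being 3 lower for ADAM and MMP proteases and 2 lower for phosphodiesterases and adenylyl cyclases. Of the 11 measured embryoid body markers 5 fell, namely Mesp1 (-1.80 ± 0.23), Fgf5, Mixl1 (-1.74 ± 0.25), Nanog (-1.61 ± 0.17) and Eomes (-0.90 ± 0.20). Mixl1 was not called without replicate 3 (adjusted p = 0.146), and Eomes was lost without any 1 replicate, 4 of the single arrays, in the fit of the compared groups alone and with all probe sets tested (0.0532 to 0.486). From 21 markers of visceral endoderm Sox7 (1.87 ± 0.21) and Apoe rose and Foxa2 fell, with array means of 5.30 to 5.49 in controls and 5.42 to 5.57 after induction. The part of that cell type in the results was not tested. These lists were written with earlier results of the same data known, so their shares are descriptions.

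**Figure D2:**
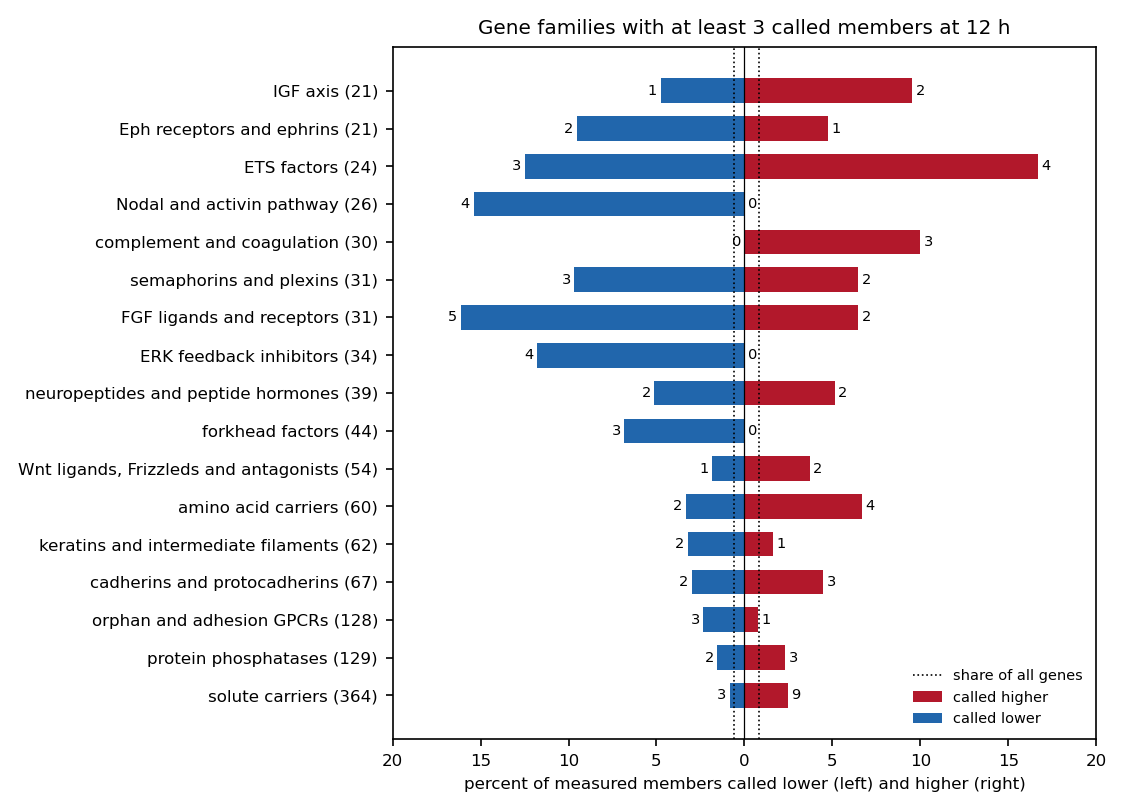
Percent of measured members called lower (blue, left) and higher (red, right) at 12 h in the families described that have at least 3 called members, with the number called beside each bar and the number measured in brackets. Dotted lines mark the shares among all genes, 0.577% lower and 0.813% higher. Nodal pathway genes, ERK feedback inhibitors and forkhead factors were called in the lower direction alone, and complement and coagulation genes in the higher direction alone.

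The regions before the start of the genes that moved most are shown because the 3 induced factors bind DNA directly. The windows run from 250 bases before to 50 bases after the start in RefSeq (GRCm38.p6). They belong to the 2 largest rises and the 2 largest falls with an entry in that table, leaving aside the induced factors. Capitals mark the ETS letters AGGAAG or CGGAAG, the GATA letters AGATAA and the E-box letters CAGATG, or their reverse complements on the other strand. Slc7a8 encodes an amino acid exchanger and Nxf7 a member of the nuclear RNA export family; Foxa2 encodes a forkhead factor of the node and endoderm and Ppp4r4 a regulatory subunit of protein phosphatase 4. They lie at chr14:54781837-54782136 (minus strand), chrX:135598732-135599031 (minus), chr2:148046920-148047219 (minus) and chr12:103532315-103532614 (plus).
Slc7a8: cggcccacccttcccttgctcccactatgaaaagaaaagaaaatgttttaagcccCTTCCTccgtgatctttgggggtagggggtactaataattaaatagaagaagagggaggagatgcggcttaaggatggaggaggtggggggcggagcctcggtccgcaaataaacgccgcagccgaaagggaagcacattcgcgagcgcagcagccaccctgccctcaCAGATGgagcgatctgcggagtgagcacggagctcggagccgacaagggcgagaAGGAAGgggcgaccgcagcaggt
Nxf7: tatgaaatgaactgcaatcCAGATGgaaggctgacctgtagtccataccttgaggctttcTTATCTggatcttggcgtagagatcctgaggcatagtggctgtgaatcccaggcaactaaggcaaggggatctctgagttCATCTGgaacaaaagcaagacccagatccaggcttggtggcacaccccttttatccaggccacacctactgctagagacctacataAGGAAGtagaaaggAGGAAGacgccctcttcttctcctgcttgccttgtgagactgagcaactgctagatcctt
Foxa2: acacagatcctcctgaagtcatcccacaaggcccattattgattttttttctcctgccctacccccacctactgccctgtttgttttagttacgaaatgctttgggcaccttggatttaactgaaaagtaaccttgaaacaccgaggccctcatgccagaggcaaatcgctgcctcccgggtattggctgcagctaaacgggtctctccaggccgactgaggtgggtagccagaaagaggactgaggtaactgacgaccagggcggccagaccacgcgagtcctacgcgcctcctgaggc
Ppp4r4: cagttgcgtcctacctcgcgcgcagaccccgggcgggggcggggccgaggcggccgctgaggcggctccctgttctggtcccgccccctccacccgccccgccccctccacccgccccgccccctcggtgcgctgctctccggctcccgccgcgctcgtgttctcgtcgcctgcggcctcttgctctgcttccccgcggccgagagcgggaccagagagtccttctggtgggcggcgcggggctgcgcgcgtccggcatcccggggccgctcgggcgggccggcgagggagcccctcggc

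The Slc7a8 window held 2 ETS matches, at -195 to -190 and at 28 to 33 counted from the start, and 1 E-box match at -27 to -22. In the Nxf7 window there were 2 ETS matches, at -24 to -19 and -10 to -5, a GATA match at -190 to -185 and 2 E-box matches. No match was found in the windows of Foxa2 and Ppp4r4. The windows of the next rise and the next fall, Npl and Igfbp3, were searched too and are not printed. That of Npl held no match, and that of Igfbp3 held 1 E-box match, at -1 to 5. The ETS letters were common everywhere: they stood in 48.6% of the 15614 windows of tested genes, in 43.8% of the 121 windows of genes called higher and in 31.8% of the 85 windows of genes called lower. GATA letters stood in 9.55%, 11.6% and 3.53% of the same windows. The E-box letters stood in 14.1%, 19.8% and 17.6%. A match describes letters and not a binding site, and 1 window stands for each gene whatever other starts it has.

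Transport of amino acids and metals changed at single carriers. The largest rise outside the induced factors was Slc7a8, the light chain of an exchanger of neutral amino acids. Its log2 values were 5.44, 4.70 and 4.76 in controls and 9.32, 8.69 and 8.99 after induction, a difference of 4.03 ± 0.28 or 16.4-fold (adjusted p = 2.22e-06). The lowest induced array lay far above the highest control array. Slc46a3, a carrier of the lysosomal membrane, was at 6.47, 5.87 and 6.05 in controls and at 8.87, 8.55 and 8.49 after induction, a difference of 2.50 ± 0.21 (5.67-fold, adjusted p = 1.59e-05). Slc39a4, the zinc importer ZIP4, was at 6.88, 6.15 and 6.29 against 9.03, 8.63 and 8.80, a difference of 2.38 ± 0.20 (adjusted p = 1.49e-05). Both genes were thus well separated between the groups, and in each the induced replicate 1 was the highest array.

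Slc7a3, a carrier of cationic amino acids and a relative of Slc7a8, moved the other way. It fell by 1.61 ± 0.17, from 9.14, 9.10 and 9.08 to 7.67, 7.47 and 7.33 (adjusted p = 8.83e-05). The control arrays of Slc7a3 were nearly equal and all lay above the induced arrays. Among 60 amino acid carriers 4 rose (6.67%, all genes 0.813%) and 2 fell (3.33%, all genes 0.577%). The other 3 rises were Slc43a1 (0.88 ± 0.13) and Slc7a5 (0.72 ± 0.16), carriers of large neutral amino acids, and Slc6a9 (1.09 ± 0.20), a glycine carrier. The other faller was Slc6a15 (-0.83 ± 0.18), which carries neutral amino acids. Slc3a2, the heavy chain that pairs with Slc7a5 and Slc7a8, differed by 0.34 and was not called (adjusted p = 0.73; chosen after its values were seen). Of 24 zinc carriers Slc39a4 and the exporter Slc30a2 (1.02 ± 0.16) rose (8.33%, all genes 0.813%). Slc32a1, the vesicle carrier of inhibitory transmitters, rose by 1.10 ± 0.20, and Slc27a2, which imports and activates fatty acids, fell by 1.24 ± 0.21.

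Calls of the 4 largest carrier changes held in each fit that left out arrays. Those of Slc43a1, Slc30a2 and Slc27a2 were lost without replicate 2 and without replicate 3 (adjusted p from 0.0595 to 0.147). Slc7a5 and Slc6a15 lost theirs without any 1 replicate and without any 1 of the 6 arrays (0.0539 to 0.462). Slc6a9 lost its call without replicate 1, 2 or 3, control replicate 1 and induced replicates 1 and 3 (0.0504 to 0.249), and Slc32a1 without replicates 2 and 3, control replicates 1 and 3 and induced replicates 2 and 3 (0.0507 to 0.232). Among ion channels the calls were few. Kcne3, an accessory subunit of potassium channels, rose by 2.10 ± 0.30 and Kcnj3, a channel subunit opened by G proteins, fell by 1.02 ± 0.17, as 2 of 92 potassium channel genes. Each was 1.09% of the list, near the shares of all genes called higher (0.813%) and lower (0.577%). Without replicate 2 neither was called (adjusted p = 0.0905 and 0.106), nor was Kcnj3 without replicate 3 (0.0756). None of 48 ABC transporters and none of 59 calcium, sodium and TRP channels was called, with median differences of -0.035 and 0.019.

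**Figure D3:**
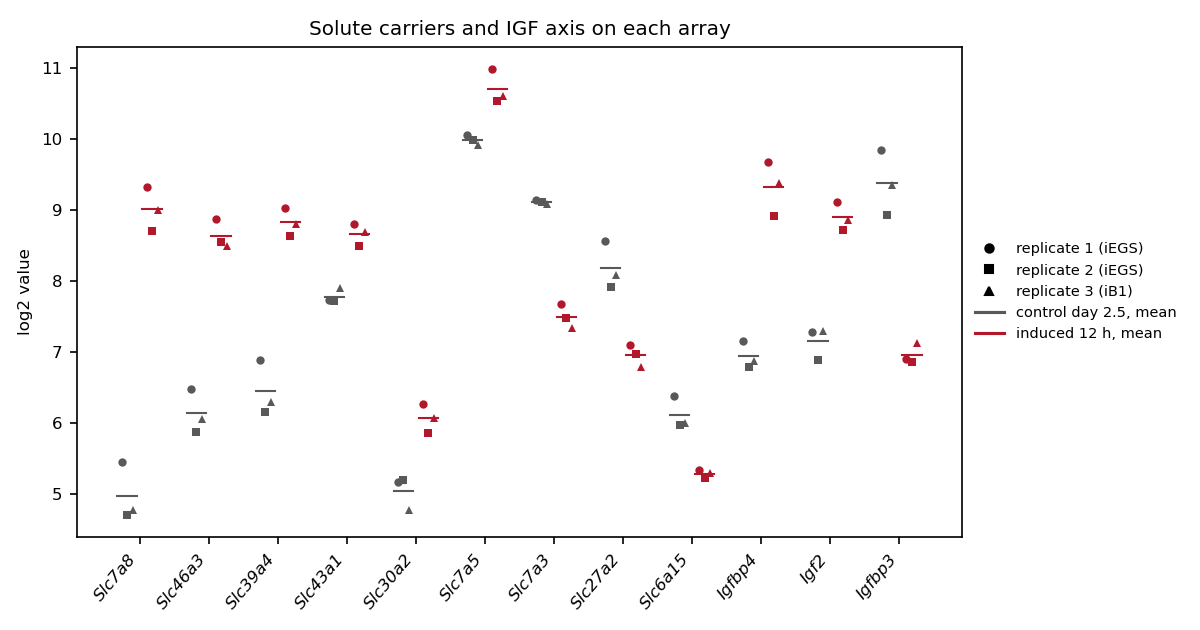
Log2 values of 9 solute carriers and 3 genes of the insulin-like growth factor axis on each of the 6 arrays, controls in grey and induced 12 h in red, with marker shape for the replicate and a line for the group mean. Control and induced arrays do not overlap in any of the 12 genes, as in every called gene, and Slc7a8 shows the widest gap.

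Secreted growth factors, their binding proteins and peptide hormones moved in both directions. In the insulin-like growth factor axis (21 genes), Igfbp4 and Igf2 rose (9.52%, all genes 0.813%) and Igfbp3 fell (4.76%, all genes 0.577%). Igfbp4, a binding protein that holds IGFs away from their receptor, went from 7.15, 6.78 and 6.86 to 9.66, 8.92 and 9.37, a difference of 2.38 ± 0.19 (5.22-fold, adjusted p = 9.3e-06). The ligand gene Igf2 was at 7.28, 6.88 and 7.29 in controls and at 9.11, 8.71 and 8.86 after induction (1.74 ± 0.20, adjusted p = 0.000228). Igfbp3, another binding protein, had 9.84, 8.93 and 9.35 in controls and 6.89, 6.86 and 7.12 after induction, so that it fell by 2.42 ± 0.22 (adjusted p = 3.23e-05). In all 3 genes the groups were separated, as in every called gene, and the calls held without any replicate or array. The receptor genes Igf1r (-0.12) and Igf2r (0.08) were not called, with overlapping arrays; both were chosen after their values were seen.

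Gas6, the ligand of the TAM receptor kinases, rose by 1.97 ± 0.23 from control values of 6.45, 5.45 and 6.33 to 8.36, 7.83 and 7.95. Of 39 neuropeptide and peptide hormone genes, 2 rose (5.13%, all genes 0.813%) and 2 fell (5.13%, all genes 0.577%). Trh, which encodes thyrotropin-releasing hormone, was among the brightest genes in controls (11.48, 11.32 and 11.55) and was at 9.38, 8.78 and 9.29 after 12 h. It fell by 2.30 ± 0.21 (4.93-fold, adjusted p = 3.23e-05). Apln, the ligand of the apelin receptor, fell by 1.31 ± 0.19 and Ramp2, the partner of the adrenomedullin receptor, rose by 1.54 ± 0.15. Nmb, the peptide neuromedin B, rose by 0.88 ± 0.18, a call that was lost in the fit of the compared groups alone (adjusted p = 0.054), without replicates 2 or 3, without control replicates 2 or 3 and without induced replicates 1 or 3 (0.0897 to 0.471). Cxcl12, the ligand of Cxcr4, fell by 1.27 ± 0.17 as 1 of 56 chemokine genes (1.79%, all genes 0.577%), and was not called without replicate 2 (0.0519) or replicate 3 (0.0615).

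Among guidance cues the largest fall was that of Sema6a. This membrane-bound semaphorin was at 9.34, 9.05 and 9.20 in controls and at 6.64, 6.88 and 6.69 after induction, and so fell by 2.46 ± 0.17 (5.51-fold, adjusted p = 2.72e-06). The arrays of each group lay close together and far from those of the other group. Among 31 semaphorin, plexin and neuropilin genes Sema3c (-1.10 ± 0.19) and Sema3e (-0.72 ± 0.15) also fell. Nrp1, a shared receptor of class 3 semaphorins and VEGF, rose by 1.20 ± 0.25, and the secreted Sema3f rose by 0.85 ± 0.14. Of the 31 genes 9.68% were called lower and 6.45% higher, against 0.577% and 0.813% of all genes. Their median difference was -0.041, against -0.0087 for all genes.

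Of the Eph receptor and ephrin genes 2 receptors fell (9.52%, all genes 0.577%) and 1 ligand rose (4.76%, all genes 0.813%). Epha1, a receptor kinase, was at 9.03, 8.48 and 8.82 against 7.31, 7.03 and 6.91 (-1.69 ± 0.16, adjusted p = 3.23e-05). Epha2, a second receptor of the same class, went from 8.55, 7.52 and 7.87 to 6.71, 6.01 and 5.97 (-1.75 ± 0.28, adjusted p = 0.00307). In both genes replicate 1 was the highest array within its group and, as in every called gene, the groups did not overlap. Efnb2, the B-class ephrin known from arteries, rose by 0.70 ± 0.12, as 1 of 21 Eph and ephrin genes. From the Slit, Robo and netrin genes (21), the netrin receptor gene Unc5b rose by 0.96 ± 0.21 and the ligand gene Slit3 fell by 0.84 ± 0.18. Each was 4.76% of that list (all genes 0.813% higher and 0.577% lower). The calls of Sema6a and Epha1 held without any replicate or array. Sema3c and Epha2 lost theirs without replicate 2 or 3 (adjusted p from 0.0633 to 0.123), and Sema3f without any 1 replicate (0.0512 to 0.238). Sema3e and Slit3 lost theirs without any 1 replicate and most single arrays (0.0506 to 0.561), Nrp1 and Unc5b without replicates 2 or 3 and any single array but control replicate 1 (0.0565 to 0.403). Efnb2 was not called without any 1 replicate or induced replicate 2 (0.0504 to 0.462).

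Several FGF ligands, inhibitors that they switch on and ETS factors of the same pathway fell, while other ligands rose. Fgf5, the ligand gene of the epiblast, was at 9.15, 8.65 and 9.14 in controls and at 7.38, 7.14 and 7.08 after 12 h, and fell by 1.78 ± 0.18 (adjusted p = 6.23e-05). Fgf8, the ligand of the primitive streak, fell by 1.22 ± 0.23, from 7.69, 7.66 and 7.87 to 6.73, 6.30 and 6.53. Fgf17 (-0.72 ± 0.16) and Fgf15 (-0.64 ± 0.14), further ligand genes, and Fgfbp1 (-1.10 ± 0.25), whose product carries FGFs, completed the 5 falls among 31 genes. Fgf10, a ligand of mesenchyme, rose by 1.41 ± 0.23 from 6.76, 6.36 and 6.52 to 8.25, 7.59 and 8.03, and Fgf3 rose by 0.95 ± 0.16. The median of the 31 genes was 0.043; 17 of the 31 differences were positive.

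Of 34 feedback inhibitors and targets of ERK signalling 4 fell (11.8%, all genes 0.577%) and none rose (1 with the replicate block). Etv5, an ETS factor whose transcription follows FGF signals, went from 10.31, 10.32 and 10.25 to 9.10, 8.65 and 8.63 (-1.50 ± 0.24, adjusted p = 0.00282). A second probe set of Etv5 differed by -1.05 (adjusted p = 0.155). Etv4, of the same subfamily, fell by 1.29 ± 0.21, and the receptor kinase inhibitors Spry4 and Spry2 fell by 1.05 ± 0.21 and 0.91 ± 0.20. Dusp6, an ERK phosphatase, differed by -0.66 without passing the test (adjusted p = 0.16; chosen after its values were seen). The list's median was -0.080, and 12 of its 34 differences were positive.

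Of 24 ETS family genes 4 rose and 3 fell, with Etv2 kept out of the list as an induced factor. Fli1, an ETS factor of blood and endothelium, was at 5.22, 5.62 and 5.61 in controls and 8.55, 8.31 and 8.14 after induction (2.85 ± 0.17, adjusted p = 6.86e-07). Elk3 rose by 1.09 ± 0.17, Erg by 0.85 ± 0.19 and Spi1, the blood factor PU.1, by 0.82 ± 0.17. Etv1, the third member of the subfamily of Etv4 and Etv5, fell by 1.64 ± 0.18 from 8.35, 8.27 and 8.43 to 6.89, 6.56 and 6.67. The 3 ETS genes that fell were thus of 1 subfamily, which was given no test. The calls of Fgf5, Fli1 and Etv1 held in each fit that left out arrays. Without replicate 2, Fgf10, Etv4, Etv5 and Elk3 were not called (adjusted p from 0.0844 to 0.194), and without replicate 3, Fgf10, Fgf3, Etv4 and Elk3 (0.0714 to 0.259). Fgf8 was lost without replicate 2 or 3, control replicate 3 and induced replicates 2 and 3 (0.0587 to 0.172). Spry2 and Spry4 were lost without the same arrays and control replicate 1 (0.0791 to 0.56), and Spry2 also when the compared groups were fitted alone (0.112). Fgf15, Fgf17, Fgfbp1, Erg and Spi1 were the least stable, being lost without any 1 replicate, without most single arrays and in the fit of the compared groups alone (0.0526 to 0.699), and Fgfbp1 and Erg also with all probe sets tested (0.0618 and 0.0508).

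**Figure D4:**
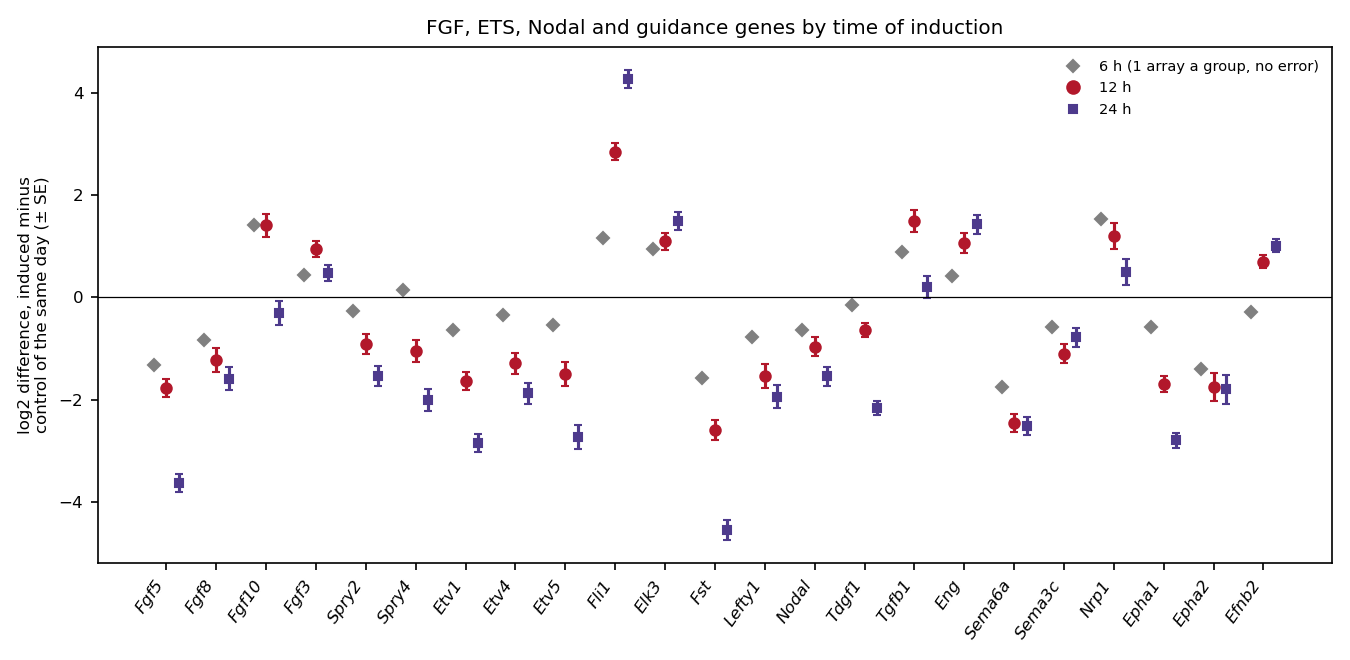
Log2 difference between induced cells and controls of the same day for 23 signalling and guidance genes after 6 h (grey diamonds, 1 array a group), 12 h (red circles) and 24 h (purple squares, both 3 arrays a group), with bars for the standard error from limma. Fst, Fgf5, Etv1 and Epha1 lie further down at 24 h than at 12 h, Fli1 lies further up, and Fgf10 and Tgfb1 stand near 0 at 24 h. The control of Fgf10 itself rose by 1.29 from day 2.5 to day 3.

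In the Nodal pathway 4 of 26 genes fell, among them a ligand, a co-receptor and secreted antagonists. Fst, which encodes the activin antagonist follistatin, was at 9.45, 8.75 and 9.44 in controls and at 6.52, 6.55 and 6.80 after induction, and fell by 2.59 ± 0.19 (6.03-fold, adjusted p = 4.8e-06). The feedback inhibitor Lefty1 fell by 1.54 ± 0.23, the ligand gene Nodal by 0.96 ± 0.19 and the co-receptor gene Tdgf1 by 0.64 ± 0.13. Tdgf1 had the highest signal of the 4, with control values of 12.20, 12.35 and 12.27 against 11.58, 11.60 and 11.73. No member of the 26 rose, and 9 differences were positive. Of 19 TGF-beta genes, the ligand gene Tgfb1 and the co-receptor gene Eng rose by 1.49 ± 0.21 and 1.06 ± 0.19 (10.5%, all genes 0.813%). Tgfb1 went from 6.46, 5.59 and 6.21 to 7.70, 7.42 and 7.62.

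Wnt8a, a ligand of the streak, fell by 2.34 ± 0.20 from 7.64, 7.0 and 7.20 to 4.76, 5.31 and 4.76. Wnt2b, another ligand gene, rose by 1.54 ± 0.23, and the R-spondin receptor gene Lgr5 rose by 1.77 ± 0.27, as the other called members of 54 Wnt pathway genes. Of the 54 genes 3.7% were called higher and 1.85% lower (all genes 0.813% and 0.577%). The calls of Fst and Wnt8a held in each fit that left out arrays. Lefty1 (adjusted p = 0.0958) and Tgfb1 (0.0648) were not called without replicate 2, Wnt2b (0.0622) was not called without replicate 3, and Lgr5 was lost without either (0.0748 and 0.114). Eng was lost without replicate 2 or 3 or induced replicate 1 (0.053 to 0.235). Nodal and Tdgf1 were lost without any 1 replicate and most single arrays (0.0506 to 0.594).

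Cytoskeleton and cell adhesion genes contributed single members of many families. Rises outside the family lists included those of Inka1, which encodes an inhibitor of the kinase PAK4 (2.08 ± 0.22), Lcp1, an actin bundling protein of leukocytes (1.93 ± 0.25), Ablim1, an actin-binding LIM protein (1.78 ± 0.16), and Capn6, a calpain without protease activity (1.96 ± 0.25).

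The neurofilament genes Nefm and Nefl fell. Nefm was at 7.81, 7.22 and 7.30 in controls and at 5.99, 5.47 and 5.54 after induction (-1.78 ± 0.19, adjusted p = 0.000114), and Nefl went from 9.05, 8.49 and 8.61 to 7.23, 6.87 and 7.08 (-1.66 ± 0.22, adjusted p = 0.000586). Both encode subunits of the intermediate filaments of neurons, and both were separated between the groups, as was every called gene. None of 21 genes in the list of neural lineage markers was called, with array means of 5.16 to 5.29 in controls and 5.10 to 5.19 after induction. Krt18, a keratin of simple epithelia, rose by 0.98 ± 0.19. Among 67 cadherin genes, Cdh11, a cadherin of mesenchyme, fell by 1.68 ± 0.22 and the protocadherin gene Pcdh18 by 1.16 ± 0.17. Pcdh19, Cdh5 (the cadherin of endothelial junctions) and the desmosomal cadherin gene Dsc2 rose by 1.17 ± 0.18, 1.16 ± 0.23 and 0.81 ± 0.17. Of the 67 genes 4.48% were called higher and 2.99% lower (all genes 0.813% and 0.577%).

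Among 44 collagen and 19 basement membrane genes 3 rose and none fell (1 fell with the replicate block). The rises were 4.55% of the first list and 5.26% of the second (all genes 0.813%). Col14a1, a fibril-associated collagen, rose by 1.76 ± 0.23, and the basement membrane genes Nid1 and Col4a6 by 1.26 ± 0.26 and 0.62 ± 0.14. The integrin gene Itga8 fell by 1.19 ± 0.21 as the 1 call among 31 integrins (3.23%, all genes 0.577%). Coagulation factor V (F5), the thrombin receptor F2r and the protein C receptor Procr rose by 1.45 ± 0.21, 1.08 ± 0.16 and 0.97 ± 0.18. They were 3 of 30 complement and coagulation genes (10.0%, all genes 0.813%). Amot (1.40 ± 0.27), which encodes angiomotin, and Vgll4 (0.97 ± 0.15), which encodes a partner of TEAD factors, rose among 28 Hippo genes (7.14%). None of 83 ADAM and MMP proteases, 101 protease inhibitors or 39 tight junction genes was called. With the replicate block 3 of the proteases were lower and 1 higher; Adamts9, a secreted protease chosen here after its values were seen, differed by -1.55 ± 0.36 (adjusted p = 0.0503, and 0.00143 with the block).

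Of the cytoskeleton and adhesion genes, Inka1, Ablim1, Capn6, Nefm, Cdh11 and Col14a1 kept their calls in each fit that left out arrays. Without replicate 2 the adjusted p of Lcp1, Nefl, Pcdh19 and F5 ranged from 0.0521 to 0.0613, and without replicate 3 that of Pcdh18 was 0.126. Itga8, F2r and Vgll4 were lost without replicate 2 or 3 (0.0645 to 0.2). Krt18, Nid1, Cdh5 and Amot were lost without replicate 2 or 3 and without control replicate 2 (0.0565 to 0.462), and each of them also without at least 1 other single array. Col4a6, Dsc2 and Procr were lost without any 1 replicate and at least 4 single arrays (0.0518 to 0.771). Col4a6 was lost after a second quantile normalization as well (0.0534), with an intensity trend (0.0594) or in the fit of the compared groups alone (0.096).

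Single genes of the interferon response and of antigen processing fell. Irf1, the transcription factor interferon regulatory factor 1, was at 8.48, 8.12 and 8.18 in controls and at 7.21, 6.48 and 7.02 after induction, a difference of -1.36 ± 0.20 (2.56-fold, adjusted p = 0.00162). A second probe set of Irf1 gave -0.69 (adjusted p = 0.0222). Psmb8, a catalytic subunit of the immunoproteasome, went from 7.15, 6.75 and 7.04 to 5.83, 5.59 and 5.61 (-1.31 ± 0.16, adjusted p = 0.000463). Psmb10, another such subunit, fell by 0.83 ± 0.18, while Psmb9, the third, differed by -0.46 without passing (adjusted p = 0.37). Psmb8 and Psmb10 were the 2 calls among 50 proteasome genes (4.0%, all genes called lower 0.577%). Irf1 and Psmb8 were the 2 calls among 31 interferon response genes (6.45%), of which 9 differences were positive and whose median was -0.109.

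Among the 20 largest falls were 3 further genes with such roles. Irgm1, an interferon-inducible GTPase, was at 7.72, 6.80 and 6.86 in controls and 5.72, 5.17 and 5.28 after induction (-1.73 ± 0.23, adjusted p = 0.000699). Gbp2b, a guanylate-binding protein, went from 7.10, 6.15 and 6.43 to 5.0, 4.38 and 5.15 (-1.72 ± 0.25, adjusted p = 0.00171). Erap1, the peptidase that trims peptides for MHC class I, fell by 1.67 ± 0.22 from 6.94, 6.51 and 6.45 to 5.19, 4.65 and 5.05. In all 3 the groups did not overlap, as in every called gene, and the controls were highest in replicate 1. Tapbp, which loads peptides onto MHC class I, and Gbp7 were chosen after their values were seen; they fell by 0.89 ± 0.18 and 0.64 ± 0.14 (adjusted p = 0.0165 and 0.0347). Other members did not pass the test: Tap1 and Tap2, the peptide transporter, differed by -0.17 and -0.38, Irf2 by 0.53, and none of 33 MHC genes was called. The call of Gbp2b held in each fit that left out arrays. Without replicate 2, Irf1 (adjusted p = 0.1), Erap1 (0.0823) and Irgm1 (0.0545) were not called, and without replicate 3 neither were Irf1 (0.0505) and Psmb8 (0.0649). Psmb10 was lost without any 1 replicate and without single arrays other than control replicate 2 (0.0704 to 0.656), and Tapbp and Gbp7 were lost without replicates 2 or 3 and without 4 or more single arrays (0.0748 to 0.453). Gbp7 was also lost without replicate 1 (0.238), in the fit of the compared groups alone (0.0629) and after a second quantile normalization (0.0688).

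**Figure D5:**
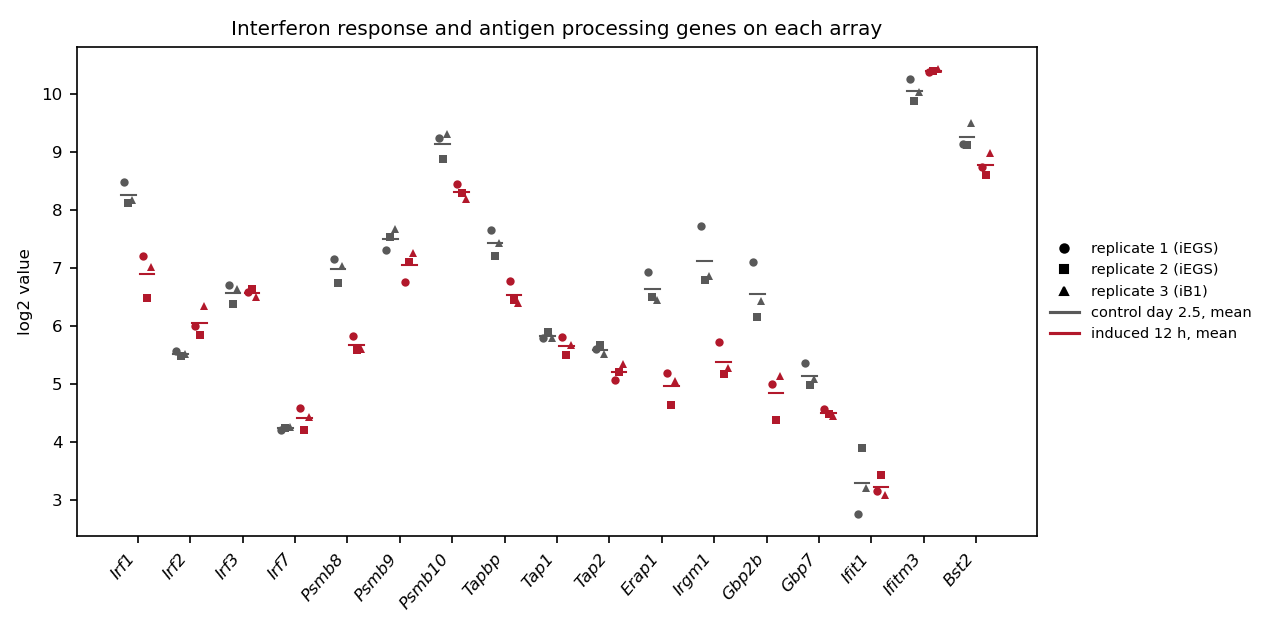
Log2 values of 17 genes of the interferon response and antigen processing on each of the 6 arrays, controls in grey and induced 12 h in red, with marker shape for the replicate and a line for the group mean. Irf1, Psmb8, Psmb10, Tapbp, Erap1, Irgm1, Gbp2b and Gbp7 were called lower, and the other 9 genes, among them Tap1, Ifit1 and Ifitm3, were not called.

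Transcription and chromatin genes changed at few members per family. Nxf7 of the nuclear RNA export family was dim and nearly equal on the control arrays (3.59, 3.47 and 3.52) and stood at 6.33, 6.33 and 6.32 after induction, a difference of 2.80 ± 0.15 (6.95-fold, adjusted p = 2.35e-07). It was the 1 call among 29 RNA export genes (3.45%, all genes 0.813%). Foxa2 went from 8.47, 7.86 and 8.33 to 5.58, 5.03 and 5.29, and so fell by 2.92 ± 0.23 (7.58-fold, adjusted p = 7.51e-06), the largest fall of all called genes. Foxd3, a forkhead factor of pluripotent and neural crest cells, fell by 1.41 ± 0.14 and Foxi3 by 0.95 ± 0.19, and none of the 44 forkhead genes was called higher. Hey1, a Notch target, rose by 1.96 ± 0.15 from 6.64, 6.49 and 6.63 to 8.42, 8.69 and 8.53.

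Of the chromatin genes, Hdac7, a class IIa deacetylase, rose by 1.03 ± 0.18 as 1 of 92 histone modifiers (1.09%, all genes 0.813%). In the Polycomb group (32 genes), Pcgf5 rose by 0.68 ± 0.15 and Phc1 fell by 0.97 ± 0.17. Both encode parts of Polycomb repressive complex 1, and each was 3.12% of the list (all genes 0.813% higher and 0.577% lower). None of 16 DNA methylation genes was called. Ccnd2, which encodes cyclin D2, fell by 1.38 ± 0.16, from 7.93, 7.49 and 8.05 to 6.37, 6.28 and 6.68. It was the 1 call among 36 cell cycle genes (2.78%, all genes 0.577%). Pim2, a kinase of growth and survival, was bright in controls (10.35, 10.48 and 10.71) and fell by 1.96 ± 0.21 to 8.65, 8.29 and 8.74. Ppp4r4 fell by 2.43 ± 0.28, and of 129 protein phosphatase genes 3 rose (2.33%, all genes 0.813%) and 2 fell (1.55%, all genes 0.577%). Calls of Nxf7, Foxa2, Foxd3, Hey1, Ccnd2, Pim2 and Ppp4r4 held in each fit that left out arrays. Hdac7 and Phc1 were lost without replicate 2 or 3, Hdac7 also without control replicate 3 or induced replicate 1 and Phc1 without induced replicate 3 (adjusted p from 0.0518 to 0.272). Pcgf5 was lost without any 1 replicate or array (0.0638 to 0.884), and Foxi3 without replicates 2 or 3 and 4 of the single arrays (0.0815 to 0.528) as well as after a second quantile normalization (0.0537).

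MicroRNA genes were represented by 291 probe sets of 1 gene each, and 1 was called, in the lower direction (0.344%, all genes 0.577%). Mir363 was at 6.87, 6.70 and 7.24 in controls and at 4.64, 4.93 and 4.98 after induction, so that it fell by 2.09 ± 0.30 (4.26-fold, adjusted p = 0.00135; 0.097 without replicate 2). The groups were far apart, and all 3 pairs fell. It belongs to a cluster of 6 microRNA genes on the minus strand of chromosome X, of which 5 were measured. The mature sequences are shown because Mir363 shares its seed (bases 2 to 8, in capitals) with another gene of the cluster, and Mir20b and Mir106a share one too. They are taken from RefSeq (GRCm38.p6).
miR-363-3p: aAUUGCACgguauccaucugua
miR-92a-3p: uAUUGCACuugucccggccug
miR-19b-3p: uGUGCAAAuccaugcaaaacuga
miR-20b-5p: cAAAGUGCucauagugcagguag
miR-106a-5p: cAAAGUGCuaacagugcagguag

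The other measured genes of the cluster were dim, with group means of 2.90 to 4.30. Mir20b differed by -0.96 ± 0.27 (adjusted p = 0.149) and passed with the replicate block (0.0201). Mir19b-2 differed by -0.50 ± 0.17 (adjusted p = 0.303), Mir92-2, which holds the seed of Mir363, by -0.33 ± 0.16 (0.745) and Mir106a by -0.06 ± 0.22 (0.999). A test of the difference between Mir363 and its neighbours was not run. The array measures the gene's transcript and not the mature strand.

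Metabolic genes included few called members. Npl, the enzyme that splits sialic acid, was at 6.08, 5.76 and 6.25 in controls and at 8.71, 8.72 and 8.58 after induction, a difference of 2.64 ± 0.16 (6.22-fold, adjusted p = 6.86e-07). The induced arrays were close together and well above the controls, and the call held in each fit that left out arrays. In the list of sialic acid and glycosylation genes (75), St6gal2, a sialyltransferase, fell by 0.91 ± 0.18, a call lost without any 1 replicate and without 4 of the single arrays (adjusted p from 0.0657 to 0.146). Apoe, the apolipoprotein, was bright and rose by 0.79 ± 0.14, from 10.81, 10.89 and 10.88 to 11.67, 11.57 and 11.72; it was not called without replicate 2 (0.238), replicate 3 (0.214) or induced replicate 3 (0.0507).

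No gene was called in the lists of cholesterol and fatty acid synthesis (27 genes), glycolysis and hypoxia (31), oxidative phosphorylation (98), cytosolic ribosomal proteins (57), translation factors (61), aminoacyl-tRNA synthetases (19), heme and iron (23), autophagy (29), apoptosis (34) or p53 targets (17); 1 oxidative phosphorylation gene rose with the replicate block. Their median differences lay between -0.102 and 0.019, beside -0.0087 for all genes. In cholesterol and fatty acid synthesis 2 of the 27 differences were positive, with a median of -0.096, and in 7 genes all induced arrays lay below all control arrays. Over all 19938 genes 9545 differences were positive, and in 1540 genes (7.72%) all induced arrays lay below all control arrays. Of the aminoacyl-tRNA synthetases, which attach amino acids to their tRNAs, 4 of 19 differences were positive. Such a lean was not particular to these lists: 7 of 50 proteasome, 19 of 80 chaperone and 14 of 61 translation factor differences were positive. It was absent in ribosomal proteins (34 of 57 positive) and oxidative phosphorylation (49 of 98). A shift of this size shared by a list was given no test. None of 12 reference genes was called at 12 h. Hprt, a purine salvage enzyme often used to normalize, differed by 0.75 ± 0.25 (adjusted p = 0.299), with all induced arrays above all control arrays. At 24 h Hprt was called higher, by 1.67 ± 0.25 (limma adjusted p = 0.000697).

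Most of the 12 h differences had the same direction at the other times of induction. At 6 h, with 1 array a group and no test, 158 of the 162 genes called higher at 12 h were above the day 2.25 control and 111 of the 115 called lower were below it. The same shares over all genes are not given here, and the 158 include the induced factors Gata2 and Etv2. At least 2-fold differences were already present for 37 of the genes called higher and 21 of those called lower, against 44 genes higher (0.221%) and 27 lower (0.135%) in all. Slc7a8 (3.48), Slc46a3 (2.07), Igfbp4 (1.93), Igfbp3 (-2.04), Foxa2 (-1.83) and Sema6a (-1.75) were among the members with wide log2 differences at 6 h. Npl (0.55), Igf2 (0.54), Nxf7 (0.66), Psmb8 (-0.23) and Slc7a3 (-0.46) differed little at that time.

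After 24 h, against controls of day 3, 405 genes were called higher (2.03%) and 683 lower (3.43%). Among the genes called at 12 h, 118 of 162 were called higher again and 106 of 115 lower again, and none was called the opposite way. The 12 h and 24 h comparisons use separate arrays but share 1 estimate of the spread. A test of the difference between both effects passed for 85 genes in all (0.426%), 25 of them called at 12 h. Of these 25, the effect was smaller at 24 h for 8 risers, larger for 6 risers and further below 0 for 11 fallers. Each effect is set against the control of its own day, so it can change through the induced cells, the control or both. Npl rose by a further 1.59 (adjusted p = 0.0055), to 4.22 ± 0.16 above its day 3 control. Fgf10 (-0.31 ± 0.23) and Pcdh19 (-0.31 ± 0.18) were not called at 24 h, with changes of effect of -1.72 and -1.48 (adjusted p = 0.031 and 0.016). The control of Fgf10 itself rose by 1.29 from day 2.5 to day 3 (limma adjusted p = 0.0153). Induced Fgf10 was at 8.25, 7.59 and 8.03 at 12 h and at 7.81, 7.66 and 7.11 at 24 h. For Slc7a8 (3.30 ± 0.28), Sema6a (-2.52 ± 0.17) and Nxf7 (2.79 ± 0.15) the 24 h difference was called and the test of the change in effect was not passed (adjusted p = 0.94, 1 and 1). Without replicate 2, and again without replicate 3, 1 of the 25 passed the test of the difference, Asb4 (adjusted p = 0.0387 and 0.00745), so the statements on Npl, Fgf10 and Pcdh19 rest on all replicates.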

How the data were processed

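RNA was amplified and hybridised to Affymetrix arrays, 1 per sample. The deposited values are log2 expression values of 35556 probe sets, which the authors computed by RMA with the Affymetrix Expression Console software, per the submitters' processing notes (no version given in the sources used here). RMA gives all arrays 1 distribution, which removes any change common to most genes and understates those of dim genes.

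Of the probe sets, 21789 had 1 gene symbol in the platform annotation, 1621 had several and 12146 were not listed. The probe set with the highest mean over 14 arrays stood for a gene, which left 19938 genes. limma 3.58.1 in R 4.3.3 fitted the 12 arrays of the 4 replicated groups (control day 2.5, induced 12 h, control day 3, induced 24 h), with 8 residual and 6.05 prior degrees of freedom, and genes were called at an adjusted p under 0.05. The script was tested on simulated data. Errors are standard errors from limma. Precision is limited by the number of arrays.

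Arrays with the same replicate number deviated together from their group means (correlations of 0.573, 0.344 and 0.262). The main fit left this pairing out, and the fit that blocked on the replicate number is given as an alternative. The design text speaks of independent experiments.

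Genes named are the induced factors, the called genes with the widest differences (25 up, 20 down), up to 5 called members in each direction of each of 81 lists (for a list with none, the member of lowest p), and microRNA genes called with their cluster. The widest differences were taken among called genes whose arrays did not overlap between the groups, a condition that every called gene met. Genes outside this rule are marked as chosen after their values were seen. The comparison, the lists and the rule were chosen with earlier results of these data known. Alternatives were the replicate or line block, other fits and scalings, a filter on dim genes, other choices of probe set and leaving out replicates or arrays. Probe set positions are left out, as no source used here names the array's build. 1 gene family is not reported here.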

Additional observations from a re-analysis of the deposited data

Results flagged for a closer look

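The effect of induction differed between 12 h and 24 h, by limma's test of the difference, in 15 genes named by the rule. The 24 h effect minus the 12 h effect was -2.70 for Asb4, -2.56 for Mesp1, -2.19 for Eomes, -2.11 for Mixl1, -1.96 for Fst, -1.85 for Fgf5, -1.65 for Sp5, -1.53 for Tdgf1 and -1.11 for Epha1, all genes that fell at 12 h. It was -1.72 for Fgf10 and -1.48 for Pcdh19, which rose at 12 h and were not called at 24 h. From day 2.5 to day 3 the controls of Asb4 and Fgf10 rose by 2.69 and 1.29 (limma adjusted p = 2.04e-06 and 0.0153). Induced Asb4 was at 5.34, 5.41 and 5.43 at 12 h and at 5.29, 5.46 and 5.43 at 24 h. The controls of Eomes (0.56), Fst (0.61), Fgf5 (0.30), Epha1 (0.26), Cdh5 (0.39) and Fli1 (0.03) were not called between these days. Control changes of the other genes are not given here. The effect grew for Cdh5 (2.26), Sox7 (2.05), Npl (1.59) and Fli1 (1.42). Of the 15, Asb4 alone passed without replicate 2 (adjusted p = 0.0387) and without replicate 3 (0.00745). The 12 h call itself of Asb4 was lost without replicate 2 (0.0587) or 3 (0.0649), and that of Sp5 without replicate 3 (0.162).

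Of 12146 probe sets that the platform annotation does not list, 1 was called at 12 h when tested among themselves. Probe set 10428619 had log2 values of 8.30, 8.22 and 8.12 in controls and 5.90, 5.74 and 6.00 after induction, a difference of -2.33 (limma adjusted p = 0.000133), with no overlap between the groups.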

How the results depend on the processing

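Against 162 genes higher, 115 lower and 25 called at 12 h with a different effect at 24 h, the replicate block gave 247, 194 and 55 and array weights gave 438, 360 and 128. A second quantile normalization gave 43 genes with a different effect. Leaving out a replicate or an array gave 43 to 128 genes higher, 37 to 105 lower and 0 to 21 with a different effect, the lowest without replicate 2. Without induced 24 h replicate 3, an alternative chosen after seeing the data, the counts were 194, 147 and 25. No call changed sign under any of the 21 alternatives. The replicate block kept all 277 calls. Calls lost when arrays were left out are given for the genes described and not for the others. The filter on dim genes removed 13 of the 277 called genes before the test, among them Kcne3, Pcdh19 and Col4a6. The median difference of all genes stayed between -0.0257 and 0.0079. With 3 arrays a group, few small differences can pass; the cause of each lost call was not tested.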

Other observations

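Of the 277 called genes 149 belonged to no family list. Esam, an adhesion molecule of endothelial cells and platelets, rose by 1.88 ± 0.19 from 4.57, 4.87 and 4.58 to 6.79, 6.37 and 6.52 (log2, limma adjusted p = 8.83e-05). Phlda1, a pleckstrin homology protein that responds to growth factors, rose by 1.77 ± 0.22 from 7.72, 6.68 and 7.09 to 8.92, 8.79 and 9.08 (0.000484), a call lost without replicate 3 (0.0633). Enpp3, an ectonucleotide pyrophosphatase, fell by 1.67 ± 0.28 from 8.27, 8.03 and 7.87 to 6.91, 6.19 and 6.06 (0.00515), a call lost without replicate 2 (0.274) or 3 (0.146). In these genes, as in every called gene, the control and induced arrays did not overlap. Adgra2, an adhesion receptor that acts with Wnt7 signals in brain vessels, rose by 1.51 ± 0.18 (0.000294). It was the 1 rise among 128 orphan and adhesion receptors (0.781%, all genes 0.813%), of which 3 fell (2.34%, all genes 0.577%). With the replicate block 4 of them fell and 2 rose.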
